A study of Mus musculus with 16 samples.

Results

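The genes that write, copy and remove methyl groups on DNA were followed as RNAs bound to chromatin in PGK12.1 mouse embryonic stem cells (mESCs). They were 8 genes, Dnmt1, Uhrf1, Dnmt3a, Dnmt3b, Dnmt3l, Tet1, Tet2 and Tet3, taken by name from the 12080 RNA names listed in the whole series, and every line whose RNA carried 1 of these names was used. All 8 were listed in both conditions, with 2301 of the 1305107 pairs (0.176%) in Input and 2480 of the 1415135 pairs (0.175%) in H3K27me3-RADIP. In RADIP an RNA is ligated, by way of an adaptor, to the chromatin DNA beside it, and an antibody then pulls down the chimeras, here one against H3K27me3, the histone mark laid down by Polycomb repressive complex 2. Input chimeras were a small part of the same sonicated lysate, from nuclei fixed with 1% formaldehyde, set aside before the antibody step. The cells of both groups were grown with leukemia inhibitory factor and carried no treatment or genetic change that the labels name. The labels give 8 libraries in each condition, more than the biological replicates named in the paper, and they were merged into 1 table before deposit, so the values below compare 2 merged tables and have no replicate error. Intervals are 95% and cover counting error only.

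DNMT1 copies methylation onto the new strand after replication, and UHRF1 brings it to hemimethylated sites. DNMT3A and DNMT3B set methylation at new sites, and DNMT3L, which has no catalytic activity, helps them in germ cells and stem cells. The TET proteins oxidise 5-methylcytosine and so start its removal, and Tet1 and Tet2 are the members of that family best known from mESCs. H3K27me3 is found mostly where CpG-rich DNA is not methylated.

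A pair is 1 line of a table and holds 1 RNA tag and 1 DNA tag. Only pairs of a significant combination of an RNA and a 25-kb DNA bin were in the tables, with at least 7 pairs in each combination and a median of 13 in both libraries, so pairs enter and leave the tables in blocks. An RNA that is scarce and an RNA that is seldom on chromatin cannot be told apart here, nor can fewer cells and less RNA per cell. Pairs with the tag positions of another pair amounted to 6.79% for Input and 9.74% for H3K27me3-RADIP. Of 17 markers of embryonic stem cells, 8 had pairs in Input against 10 in H3K27me3-RADIP, with 3180 and 3415 pairs in all. Esrrb held 2388 and 2500 of these, and Pou5f1 and Nanog, which define the cell type, had none. Markers of feeder fibroblasts had 40 and 59 pairs, of primitive endoderm 54 and 78, of neural cells 11 and 33, and of mesoderm none.

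The RNA side of each pair is given in the tables as a 24-base interval. The paper assigned each fragment by the base at its centre and describes tags slightly longer than this interval, but the tables do not define the interval. The sequences below mark places in the genome and may not be the tags themselves. The reference bases at its centre are shown for the position of each gene that was paired with the most different DNA positions. Ties went to the position with more pairs, which decided for Dnmt3b, where no position had more than 1 DNA position. Each sequence marks 1 place on its transcript, and the regions of all tags are given further below. The positions were chosen after the values were seen. Each sequence is 24 bases of mm10 (GRCm38, RefSeq copy) read 5′ to 3′ along the RNA strand, with the base at the listed position and the next base in capitals.

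Dnmt1, chr9:20908580-20908603, minus strand, coding exon: cccatgggcaagCAgggtcgggtg
Uhrf1, chr17:56313506-56313529, plus strand, intron: cctcaggtctgcCActgtgtgccc
Dnmt3a, chr12:3866170-3866193, plus strand, coding exon: tgagaccccaccAGaagcctccag
Dnmt3b, chr2:153654938-153654961, plus strand, intron: agatttcgctatGAcattacaatg
Dnmt3l, chr10:78053605-78053628, plus strand, intron: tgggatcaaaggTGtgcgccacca
Tet1, chr10:62879632-62879655, minus strand, coding exon: cacacccaaaccTAagaaagtacc
Tet2, chr3:133465421-133465444, minus strand, 3′ UTR: gttatatataccAGgaaggttgag
Tet3, chr6:83410430-83410453, minus strand, intron: gtttatccctccTGtattcaacat

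The Tet1 position had 15 pairs, 4 in Input against 11 in H3K27me3-RADIP, with 13 different DNA positions. The Dnmt1, Uhrf1 and Tet2 positions had 7 pairs each, and those of the other genes 2 or 3. The 3 pairs at the Dnmt3b position, all in Input, shared 1 DNA position and so may be copies of 1 contact. Most positions were seen once. For Tet1, 1628 of 2036 RNA positions had a single pair, and for Dnmt3a 242 of 272. The bases at these 2 places were uneven in composition over the pairs. At the listed position T was found in 35.7% of the pairs of the 8 genes in Input and in 37.2% in H3K27me3-RADIP, against 27.8% and 27.7% in the bases 7 to 12 upstream. At the next base A was found in 37.0% and 37.9%, against 24.6% and 25.4% upstream. All RNAs together had the same step, with T in 36.7% and 37.2% and A in 38.3% and 38.3%, so the base preference was a feature of both tables and not of these genes.

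Tet1 was far above the other genes in both libraries, by pairs and by pairs per kb. Tet1 had 1302 pairs in Input against 1395 in H3K27me3-RADIP, which is 998 (interval 944 to 1053) and 986 (935 to 1039) per 1000000 pairs. In each library 98.6% of the protein-coding RNAs had fewer pairs. Per kb of gene, Tet1 also led, with 12.5 and 13.4 pairs per kb against medians of 0.951 and 0.895 over all protein-coding RNAs. Uhrf1, a gene of 20.2 kb, was next by this measure, with 5.55 pairs per kb (4.57 to 6.68) in Input and 5.21 (4.26 to 6.30) in H3K27me3-RADIP. Dnmt1 had 3.95 and 4.31 pairs per kb, and Tet2 had 3.49 and 2.81. Tet3 followed with 2.12 and 2.98 per kb, and Dnmt3l with 1.43 and 2.54. Dnmt3a, the longest of the 8 at 108 kb, had 1.27 and 1.52, and Dnmt3b was lowest at 0.549 and 0.418. Neighbours in this order with overlapping intervals were Dnmt1 and Tet2, Tet3 and Dnmt3l, and Dnmt3l and Dnmt3a in Input. In H3K27me3-RADIP they were Uhrf1 and Dnmt1, and the group of Tet3, Tet2 and Dnmt3l. Dnmt3b lies beside Dnmt3c, a close paralogue with 9 and 7 pairs, and the division of tags between them is uncertain.

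**Figure D1:**
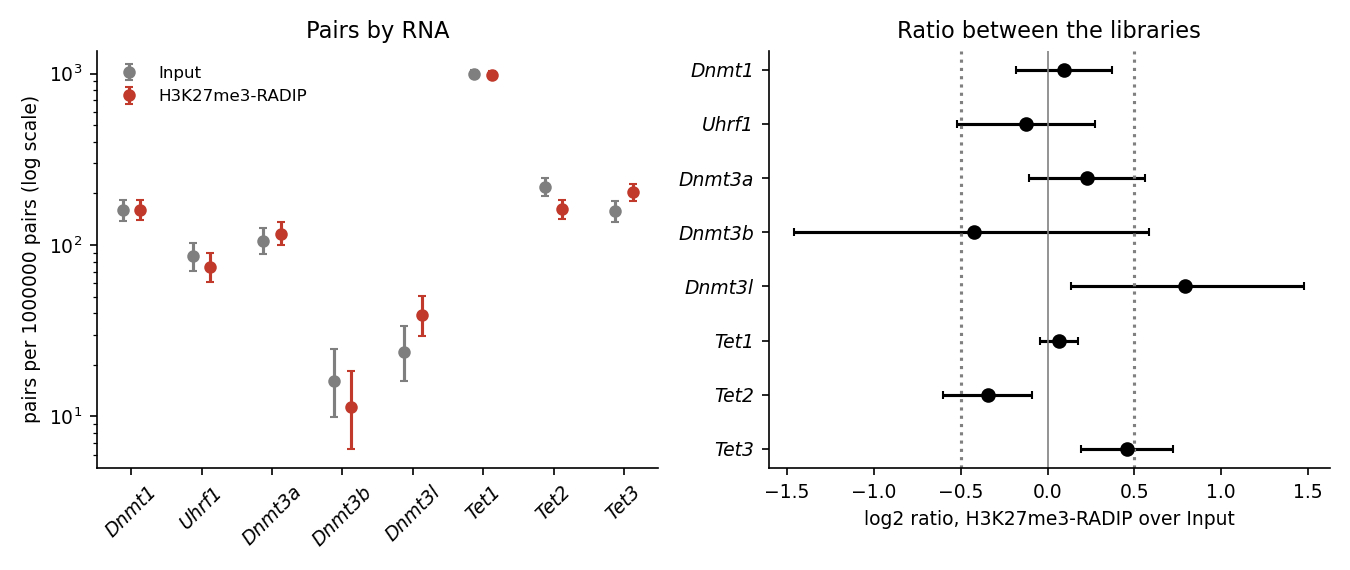
Left, pairs per 1000000 pairs (log scale) for each RNA in Input (grey) and H3K27me3-RADIP (red), with exact Poisson 95% intervals. Right, log2 ratio of H3K27me3-RADIP over Input with its 95% counting interval, with dotted lines at a log2 ratio of 0.5 in either direction. Dnmt3l, at 0.79, is the only point past a dotted line with an interval that excludes 0.

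Dnmt3l was the only gene whose number of pairs differed between the libraries by the rule used for all RNAs. A protein-coding RNA was called where the log2 ratio of H3K27me3-RADIP over Input was at least 0.5 in size and its interval excluded 0. Of 8158 protein-coding RNAs in both libraries, 12.8% were called higher and 14% lower. Of the 8 genes 1 was called higher, which is near that background share, and 0 lower. The median log2 ratio was 0.08 for the 8 genes and -0.01 for all 8158. Of the maintenance genes, Dnmt1 had 208 and 227 pairs, a log2 ratio of 0.09 (-0.18 to 0.37). Uhrf1 had 112 and 105 pairs, a log2 ratio of -0.13 (-0.52 to 0.27). Neither ratio was larger than its counting error.

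Of the de novo genes, Dnmt3l, the cofactor, was the one called. It had 31 pairs in Input against 55 in H3K27me3-RADIP, a log2 ratio of 0.79 (0.13 to 1.48). The call rested on few pairs and on 1 bin, since without combinations listed in 1 library only the log2 ratio was 0.65 and at a q-value limit of 0.01 it was 0.58, each with an interval that included 0. Dnmt3a had 138 and 165 pairs, a log2 ratio of 0.23 (-0.11 to 0.56). Dnmt3b had 21 and 16 pairs, a log2 ratio of -0.42 (-1.46 to 0.58), which at this depth could be a change in either direction.

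The Tet genes went different ways, although none reached the call. Tet1 had a log2 ratio of 0.07 (-0.04 to 0.18), the narrowest interval of the 8. Tet2 had 284 and 229 pairs, a log2 ratio of -0.34 (-0.60 to -0.09). Tet3 had 205 and 288 pairs, a log2 ratio of 0.46 (0.19 to 0.72). The intervals of Tet2 and Tet3 excluded 0 on opposite sides, and each ratio stayed under the limit of 0.5. Over all protein-coding RNAs, 18.5% had an interval above 0 and 17.5% below it. At a q-value limit of 0.01 Tet3 was 0.53 and past both limits.

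Every pair of the 8 genes was in cis, on the chromosome of the gene, as were nearly all pairs in the tables, where trans pairs were 0.345% in Input and 0.375% in H3K27me3-RADIP. How far the RNA tag lay from the DNA tag differed widely between the genes, and so did their numbers of pairs. Tet1 had the most pairs and Dnmt3b and Dnmt3l the fewest in both libraries. No listed combination held fewer than 7 pairs, so an RNA with few pairs can list few far bins. How much of the difference in distance between genes came from depth was not tested. In Input the median distance was 110 kb for Tet1, 32.5 kb for Tet2, 22.5 kb for Tet3, 16.3 kb for Dnmt1, 7.67 kb for Dnmt3a, 5.94 kb for Uhrf1, 4.74 kb for Dnmt3b and 3.003 kb for Dnmt3l. In H3K27me3-RADIP it was 187 kb for Tet1, 39.8 kb for Tet2, 28.8 kb for Tet3, 20.1 kb for Dnmt1, 16.1 kb for Dnmt3a, 9.74 kb for Uhrf1, 8.05 kb for Dnmt3l and 2.22 kb for Dnmt3b. The median was longer in H3K27me3-RADIP for 7 of the 8, all but Dnmt3b. The same was true of 80.5% of the 3239 protein-coding RNAs with at least 50 pairs in both libraries, so it was the usual direction among protein-coding RNAs, and it held for all 6 of the genes with as many pairs. Measured from the DNA tag to the edge of the gene, the median was longer for 4. For the other 4, Dnmt1, Dnmt3a, Dnmt3b and Tet3, most DNA tags lay inside the gene in both libraries, so this median was 0 in both and could not differ.

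**Figure D2:**
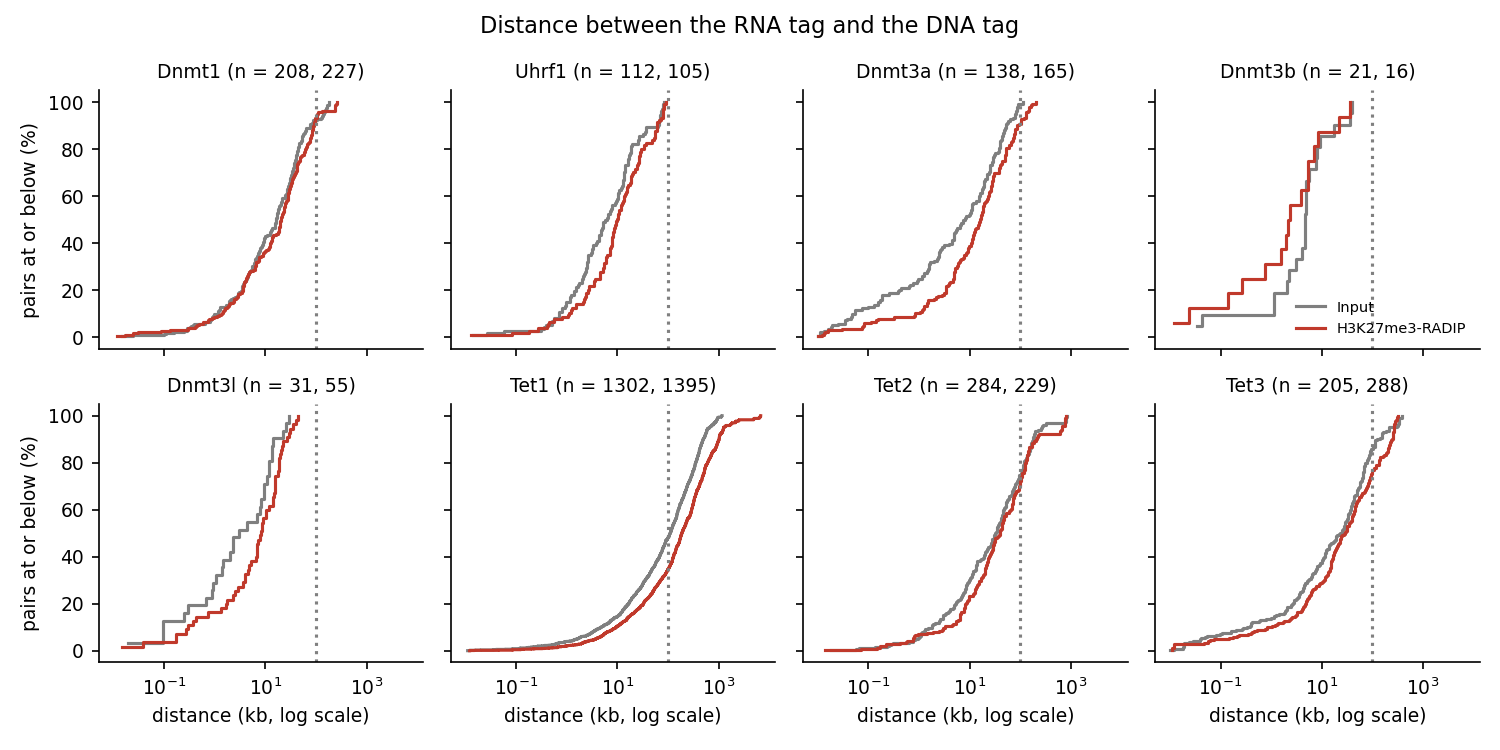
Cumulative share of pairs (%) against the distance between the RNA tag and the DNA tag (kb, log scale), for each gene in Input (grey) and H3K27me3-RADIP (red), with the numbers of pairs in Input and H3K27me3-RADIP above each panel and a dotted line at 100 kb. The Tet1 curves lie farthest to the right, with medians of 110 kb and 187 kb.

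The share of long-range pairs, over 100 kb, was higher in H3K27me3-RADIP for Tet1, Tet3 and Dnmt3a. For Tet1 their share was 51.8% of 1302 pairs in Input, and it was 65.2% of 1395 in H3K27me3-RADIP, which is 13.4 points apart (9.68 to 17.0). For Tet3 it was 14.1% and 23.3%, which is 9.12 points apart (2.06 to 15.8). For Dnmt3a it was 1 of 138 pairs and 15 of 165, which is 8.37 points apart (3.58 to 13.8). Of the protein-coding RNAs with at least 50 pairs in both libraries, 44.9% had a higher share in H3K27me3-RADIP by the same rule and 5.96% a lower one, with a median difference of 5.17 points. Of the 6 genes with as many pairs 3 were higher and 0 were lower, which is near that background. Of these RNAs, which needed only 50 pairs in each library, 93.8% had a lower share than Tet1 in Input and 96.8% in H3K27me3-RADIP.

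Tet1 kept its difference when combinations listed in 1 library only were left out, at 8.71 points. Tet3 and Dnmt3a did not, at -0.50 and -0.05 points, so their added long pairs came from bins that only H3K27me3-RADIP listed. A limit of 50 kb also ended the call for Tet3, at 3.92 points, as a q-value limit of 0.01 did for Dnmt3a, at 3.97 points, and a limit of 200 kb, at 0.61 points. Tet2 had 71 of 284 and 64 of 229 pairs over 100 kb, and Dnmt1 had 16 of 208 and 15 of 227, both within counting error, though at 200 kb the Dnmt1 difference was 3.52 points and past its interval. No pair of Uhrf1, Dnmt3b or Dnmt3l over 100 kb was listed, while 79.6% of the well-covered protein-coding RNAs had at least 1 in Input and 87.3% in H3K27me3-RADIP. Of the 3 genes, Dnmt3b in both libraries and Dnmt3l in Input had fewer than the 50 pairs required of those RNAs.

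Tet1, which had the most pairs, was also listed with by far the most DNA bins. Its RNA was listed with 49 bins in Input against 65 in H3K27me3-RADIP, of which 41 were shared. In Input the longest distance was 1166 kb, and 8 pairs were over 1000 kb apart. In H3K27me3-RADIP the longest was 6741 kb and 146 pairs, 10.5%, were over 1000 kb. Tet1 lies on the minus strand of chromosome 10 (chr10:62804570-62908996), so downstream is toward lower coordinates. Beyond 500 kb the downstream side gained most. From 500 to 1000 kb past the 3′ end there were 83 pairs in Input (6.37%) and 187 in H3K27me3-RADIP (13.4%), and past 1000 kb there were 8 and 91. Upstream there were 12 and 0 pairs from 500 to 1000 kb and 0 and 24 past 1000 kb.

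The bins with the most Tet1 pairs outside the gene were those next to it, over Ccar1 and Stox1. The bin 4.57 kb past the gene, in Ccar1, had 57 pairs in Input against 39 in H3K27me3-RADIP. The bin 79.6 kb past it, in Stox1, had 38 and 50. Near the gene the libraries thus listed the same places.

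They parted farther out. In 24 bins outside the gene Tet1 was listed in H3K27me3-RADIP only, 18 downstream and 6 upstream, with 8 to 20 pairs in each. Of these bins 21 held a protein-coding gene. Downstream they were Hk1, Hkdc1, Tspan15, Neurog3, Fam241b, Col13a1, H2afy2, Sar1a, Tysnd1, Ppa1, Npffr1, Lrrc20, Tbata, Cdh23 and Vsir, and upstream Atoh7, Mypn, Sirt1, Dnajc12, Rhobtb1 and Ank3. The bin with the most pairs, 20, held none. The farthest bin, 6666 kb upstream in Ank3, which encodes ankyrin-G, had 8 pairs, near the smallest number that the tables hold. All protein-coding genes of these bins are named.

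Bins listed in Input only were 8, with 8 to 24 pairs in each. They held Supv3l1, Vps26a and 4930507D05Rik, Aifm2 and Tysnd1 (the farthest, 1080 kb downstream), Mypn, Herc4, Dnajc12, Gm7075 and Ctnna3. Mypn, Tysnd1 and Dnajc12 thus had bins of both kinds. The same bins were read for all other RNAs, whose pairs had no part in choosing them. In the 24 bins of H3K27me3-RADIP only, other RNAs had 160 pairs in Input against 285 in H3K27me3-RADIP, a log2 ratio of 0.80 (0.52 to 1.09). In the 8 bins of Input only they had 182 and 123, a log2 ratio of -0.60 (-0.94 to -0.26). In the 36 shared bins outside the gene they had 535 and 534, a log2 ratio of -0.03 (-0.21 to 0.14). Other RNAs thus differed in these bins in the same direction as Tet1 RNA, though far bins without Tet1 pairs were not read for comparison.

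**Figure D3:**
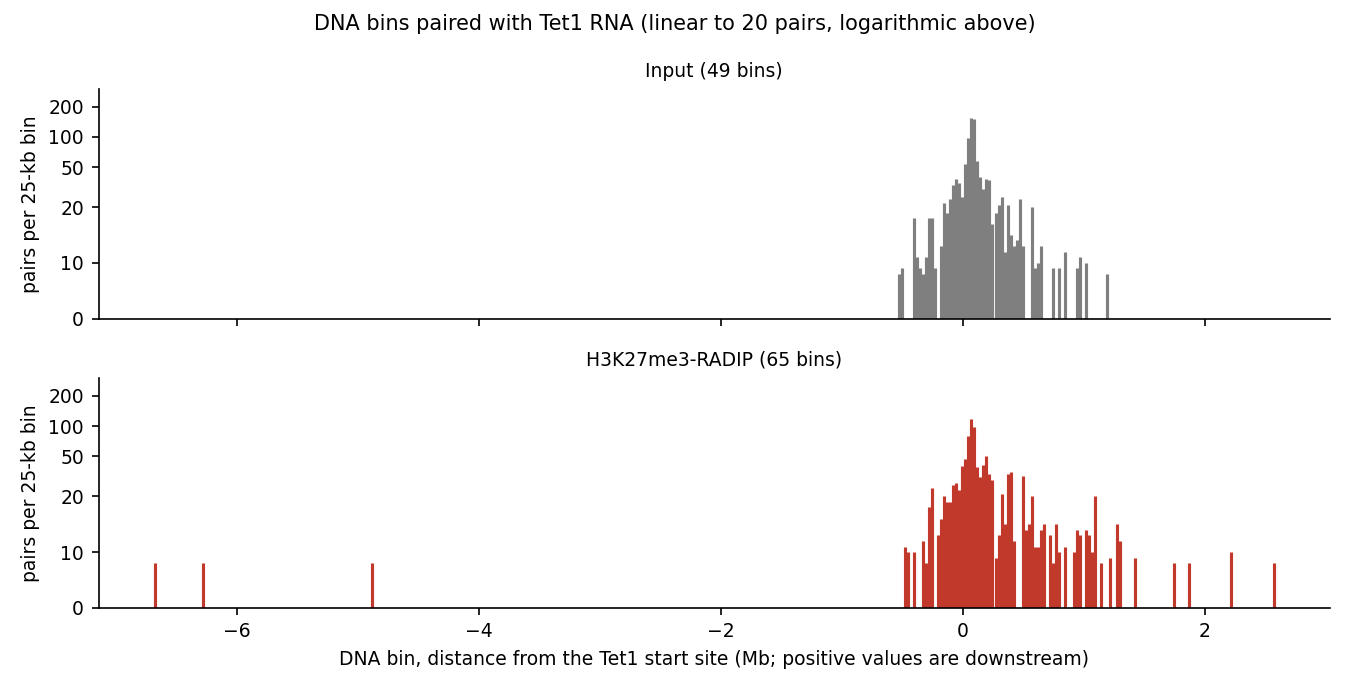
Pairs of Tet1 RNA in each 25-kb DNA bin (linear to 20 pairs, logarithmic above) against the distance of the bin from the Tet1 start site (Mb), in Input (grey, 49 bins) and H3K27me3-RADIP (red, 65 bins). Positive distances are downstream, and the bins past 1.2 Mb on either side are listed in H3K27me3-RADIP only.

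Tet2 had fewer bins in H3K27me3-RADIP, 13 against 15, with 11 shared. Of the bins downstream of it, 4 listed in both libraries lay over Ppa2, which encodes a mitochondrial pyrophosphatase. The one 114 kb past the gene had 12 pairs in Input against 18 in H3K27me3-RADIP. The farthest bins were upstream and next to each other. In H3K27me3-RADIP a bin 704.9 kb upstream with Cxxc4 had 10 pairs, and in Input the following bin, with no protein-coding gene, had 9. Cxxc4 encodes a CXXC zinc-finger protein whose gene is held to have split from an ancestral Tet2. Neither bin had a pair of another RNA in either library. The other bin listed in H3K27me3-RADIP only, 588.7 kb downstream, had 8 Tet2 pairs, and other RNAs had 23 pairs there in Input and 0 in H3K27me3-RADIP, opposite to Tet2 RNA.

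Tet3 had 10 bins in Input against 14 in H3K27me3-RADIP, with 9 shared. The shared bin over Bola3, Mob1a and Mthfd2, 12.4 kb past the gene, had 15 pairs in Input against 9 in H3K27me3-RADIP, and the one over Dguok, 15.9 kb upstream, had 10 and 8. The 5 bins listed in H3K27me3-RADIP only held 50 pairs, 4 of them upstream, over Stambp and Actg2 and over Clec4f and Cd207, which encode C-type lectins of macrophages and Langerhans cells. The bin 166 kb upstream, in Clec4f, had 13 pairs. The downstream one, 212 kb past the gene over Ino80b, Rtkn and Wdr54, had 10. The 1 bin listed in Input only, 291 kb upstream over Ankrd53, Atp6v1b1 and Tex261, also had 10. In the 5 bins other RNAs had 18 pairs in Input against 66 in H3K27me3-RADIP, and in the single Input bin 19 and 65. For Tet3 the other RNAs were therefore higher in both kinds of bin.

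The remaining genes had between 2 and 9 bins. Dnmt1 had 7 and 9, with 6 shared, and its farthest bin in H3K27me3-RADIP, 207 kb downstream, was in Olfm2 (8 pairs). In Input it was 115 kb upstream, over Raver1 and Gm38431 (15 pairs). The bin over S1pr2, 15.1 kb upstream, had 28 pairs in Input against 15 in H3K27me3-RADIP, and the one over Angptl6, Eif3g and Ppan, 7.21 kb past the gene, had 16 and 21. Bins over Icam1, an adhesion receptor (with Mrpl4 in the nearer one), had 10 pairs in Input against 16 in H3K27me3-RADIP at 40.1 kb and 0 and 12 at 65.1 kb upstream. Dnmt3a had 6 and 8 bins, all 6 of Input shared. Both of the added bins were in Efr3b, 60.6 and 110.6 kb downstream, with 9 and 8 pairs, and other RNAs had 22 and 78 pairs there. Other RNAs were also higher in some bins that both libraries listed outside a gene. They had 43 and 79 pairs in the one of Dnmt3a and 18 and 69 in the 3 of Dnmt1. In the 3 bins that Dnmt1 had in H3K27me3-RADIP only they had 52 and 93, but in its bin of Input only 102 and 73. In the shared bins outside Uhrf1, Tet2 and Tet3 the difference was within counting error, with 198 and 218, 51 and 56, and 44 and 43 pairs. Uhrf1 had 3 and 4 bins, and all outside the gene were in the downstream neighbour Kdm4b, a histone lysine demethylase. The Kdm4b bin 1.52 kb past Uhrf1 had 17 pairs in Input against 29 in H3K27me3-RADIP. Dnmt3l had 2 and 3 bins, the added one with 8 pairs in Icosl, and Dnmt3b had 2 in each library, both on its own gene. In all, 6 of the 8 genes had more bins in H3K27me3-RADIP, and among the 6 with at least 50 pairs in both it was 5, beside 60.5% of the well-covered protein-coding RNAs. At a q-value limit of 0.01 it was 3 of the 8.

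For Uhrf1, Dnmt3a, Dnmt3l and Tet1, fewer of the DNA tags lay inside the gene in H3K27me3-RADIP and more lay downstream of it. The share of a gene's own pairs with the DNA tag inside the gene was lower in H3K27me3-RADIP for 5 genes and higher for 0, by intervals of the difference that excluded 0. It was 67.0% and 49.5% for Uhrf1, 87.7% and 78.8% for Dnmt3a, 67.7% and 40.0% for Dnmt3l, 34.8% and 25.2% for Tet1, and 46.8% and 35.8% for Tet2. Among protein-coding RNAs with at least 50 pairs in both libraries, 52.1% were lower and 3.71% higher, so a lower share was common, and among the 6 of these genes with as many pairs 4 were lower. The Dnmt3a difference of -8.89 points was small, and was within counting error at -8.05 points with repeated tag positions counted once and at -0.43 points with a q-value limit of 0.01. That limit also ended the Dnmt3l call, at -20.9 points. Of the 165 Dnmt3a pairs in H3K27me3-RADIP, 17 lay downstream in the 2 Efr3b bins that only this library listed. The own-gene share was not recomputed without such bins.

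The share downstream of the gene was higher in H3K27me3-RADIP for Dnmt1, Uhrf1, Dnmt3a, Dnmt3l and Tet1, which is 5 of the 8, beside 37.5% of the background RNAs with a higher share and 6.02% with a lower one. Of the 6 genes with at least 50 pairs in both libraries it was 4. For Dnmt3l 6 of 31 pairs were downstream in Input against 27 of 55 in H3K27me3-RADIP, which is 29.7 points apart (8.57 to 46.1). For Uhrf1 it was 35 of 112 and 51 of 105, which is 17.3 points apart (4.29 to 29.6). For Tet1 it was 40.9% and 53.3%, which is 12.4 points apart (8.64 to 16.1), and for Dnmt3a 2.90% and 15.2%. Of the 25 downstream Dnmt3a pairs in H3K27me3-RADIP, 17 lay in the 2 bins that only this library listed. The 53 of Dnmt1 included 2 such bins with 8 pairs each. The downstream share was not recomputed without bins listed in 1 library only. The upstream share passed for none of the 8, where 33.3% of the background RNAs were higher and 10.7% lower. It was 24.3% and 21.6% for Tet1, 29.3% and 23.3% for Dnmt1, and 19.5% and 26.7% for Tet3. Tet3 had 15.1% and 10.1% of its pairs downstream, fewer than upstream in both libraries. Dnmt1 had 27 of 208 downstream in Input, also fewer than upstream, and the same 23.3% on either side in H3K27me3-RADIP.

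**Figure D4:**
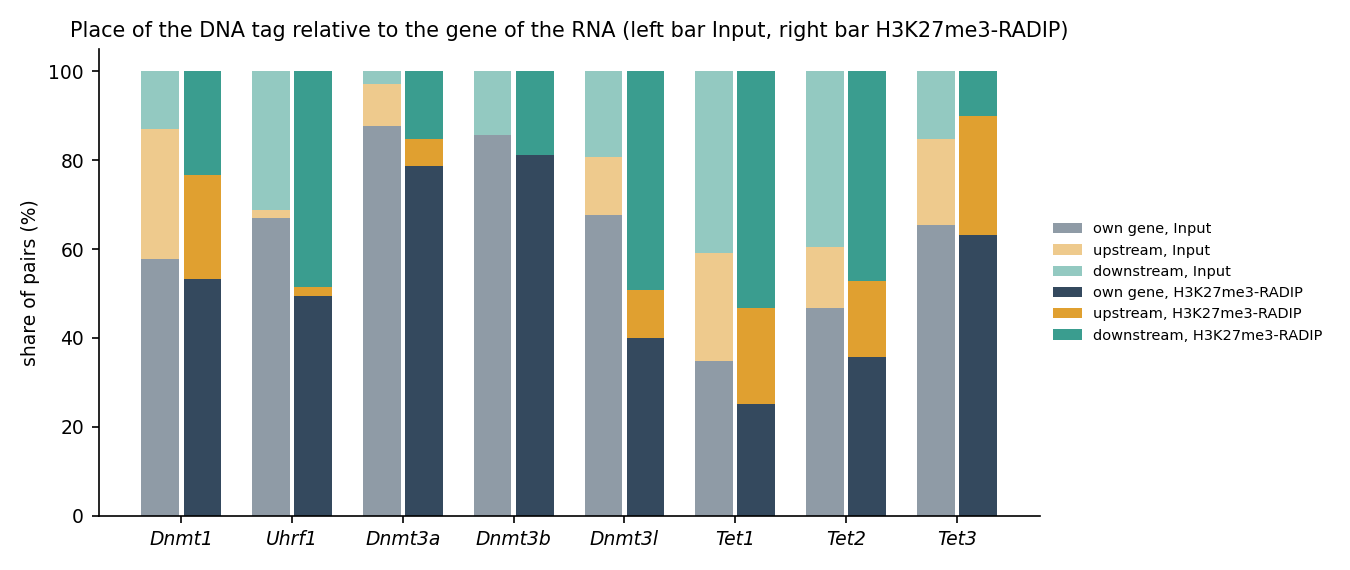
Share of pairs (%) whose DNA tag lay in the gene of the RNA, upstream of it or downstream of it, with a pale left bar for Input and a dark right bar for H3K27me3-RADIP. The downstream part is larger in H3K27me3-RADIP for every gene but Tet3, with differences beyond counting error for 5 of them.

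The RNA tags were mostly intronic, with the exception of Tet2 in Input. Intronic tags were 80.9% of the Tet1 pairs in Input compared with 80.4% in H3K27me3-RADIP, 82.7% and 81.9% for Dnmt1, 81.3% and 82.9% for Uhrf1, 80.4% and 86.1% for Dnmt3a, and 76.1% and 77.4% for Tet3. With fewer pairs, Dnmt3l had 93.5% and 80.0% and Dnmt3b 85.7% and 81.3%. The well-covered protein-coding RNAs had medians of 89.4% and 89.7%. Tet2 had 44.4% (126 of 284) in Input, which compares with 56.3% (129 of 229) in H3K27me3-RADIP. It was the only gene whose intronic share differed beyond counting error, by 11.97 points (3.26 to 20.4), where 4.35% of the background RNAs were higher and 3.61% lower. Among pairs over 25 kb apart the Tet2 difference was 8.51 points and within counting error.

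Exons of Tet2 carried more tags than introns for their length. Per kb, exonic tags were 9.37 in Input against 1.95 for introns, a ratio of 4.80, and 5.93 against 2.00 in H3K27me3-RADIP, a ratio of 2.97. In the other 7 genes this ratio lay between 0.431 and 1.56. The intronic density, not scaled for depth, was close in both libraries, and the exonic one was lower in H3K27me3-RADIP. Coding exons of Tet2 had 68 and 36 tags and its 3′ UTR 31 and 25. The coding-exon share was lower beyond counting error for Tet2, a difference of -8.22 points (-14.9 to -1.23), and for Dnmt3a, with 8 of 138 tags and 2 of 165, a difference of -4.58 points (-9.88 to -0.39). Over the background RNAs 3.06% were lower and 2.69% higher. The Dnmt3a call rested on these 10 tags. Of those in Input, 3 were at 1 RNA position with only 2 different DNA positions, so they may include a copy. The coding-exon share was not recomputed with repeated tag positions counted once. The tags also crowded to the 3′ end, with 89 of 284 in the last 10% of the gene's length in Input against 61 of 229 in H3K27me3-RADIP. The share in the first 50% of its length was 20.4% and 31.4%.

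**Figure D5:**
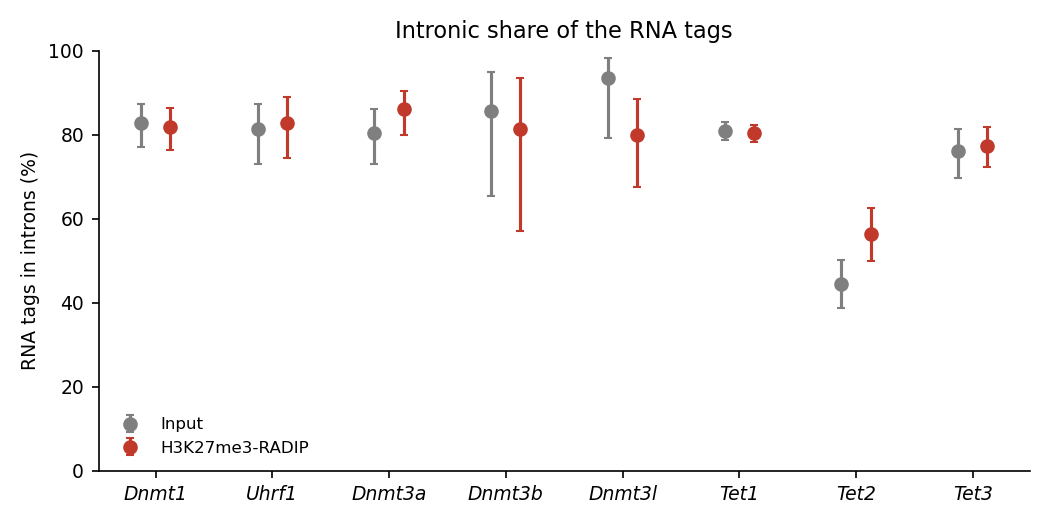
Share of RNA tags in introns (%) for each gene in Input (grey) and H3K27me3-RADIP (red), with 95% Wilson intervals. Tet2, at 44.4% and 56.3%, lies under the other genes in both libraries.

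Along Tet1 the tags gathered in the middle introns. Intron 3, the longest at 24.4 kb, had 437 tags in Input against 474 in H3K27me3-RADIP, or 17.9 and 19.4 per kb. Intron 1, of 18.8 kb, had 5.48 and 6.33 per kb. The first 10% of the gene had 2 and 3 tags. In Uhrf1 the start of the gene led instead, with 63.4% and 59.0% of the tags in the first 50% of the gene, and intron 1 at 12.5 and 7.22 per kb. In Dnmt3l 16.1% and 25.5% of the tags were in the first 50%, and in Dnmt3a they were spread evenly at 46.4% and 46.1%. Of the Tet1 pairs over 100 kb, 83.3% had intronic tags in Input against 78.3% of the nearer ones, which is 4.95 points apart (0.67 to 9.24), and in H3K27me3-RADIP 81.5% against 78.4%, 3.19 points (-1.15 to 7.74). For Tet2 far minus near was 10.3 points in Input and -8.79 in H3K27me3-RADIP, and for Tet3 11.8 and -9.49, each with an interval that included 0. Of 10 other genes that overlap these 8, 5 run on the opposite strand and are told apart by strand, which the RNA tags keep. On that strand 35 Tet3 tags lay opposite B230319C09Rik, 10 Dnmt3a tags opposite Dnmt3aos, 5 Dnmt3b tags opposite Dnmt3bos and 1 Dnmt3l tag opposite Aire. The other 5 run on the same strand, where strand does not separate them. Gm48353, inside Tet1, had 11 pairs, all of them in Input, and the remaining 4 had none, and no tag given to a member lay in any of the 5.

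Read from the DNA side, Tet1, Tet2, Tet3, Dnmt1 and Uhrf1 were paired mainly with their own RNA. Tet2 had 133 DNA tags in Input, then 82 in H3K27me3-RADIP, all of them paired with Tet2 RNA. In Tet1 the own share was 97.6% of 464 and 97.8% of 359, and in Dnmt1 91.6% and 91.0%. The others were Gm48353 (11 and 0 pairs) and Ccar1 RNA (0 and 8) in Tet1, and Gm38431 RNA (11 and 12) in Dnmt1. It was lower in H3K27me3-RADIP for Uhrf1, at 79.8% and 63.4%, and for Tet3, at 89.3% and 76.5%, which is 2 of the 8 genes, both among the 6 with at least 50 pairs. Over the background RNAs 18.2% were lower and 13.9% higher. Safb2 RNA was paired with Uhrf1 in both libraries (9 and 11 pairs) and Kdm4b RNA in H3K27me3-RADIP only (12 pairs). Tet3 was paired with 2 other RNAs in Input against 8 in H3K27me3-RADIP. Exoc6b RNA had 12 pairs in each library. Exoc4 RNA, from 49774 kb away on chromosome 6, had 0 and 9 pairs, as did Magi1 RNA. At a q-value limit of 0.01 the Tet3 difference was 1.84 points in the other direction.

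The 3 de novo genes were shared with RNAs of nearby genes, although their own RNA still held the larger part of Dnmt3a and Dnmt3l in both libraries. The own share was 58.2% and 53.3% in Dnmt3a, 40.9% and 56.5% in Dnmt3b, and 56.8% and 73.3% in Dnmt3l, with no difference beyond counting error. With whole 25-kb bins in place of gene bounds the Dnmt3l difference, 30.8 points, was past its interval. RNA of Dtnb, which encodes dystrobrevin beta and lies upstream, had 79 and 95 DNA tags in Dnmt3a, beside 121 and 130 of Dnmt3a RNA itself, and Ncoa1 RNA had 8 in each library. In Dnmt3b, Mapre1 RNA had 18 and 0 pairs and Asxl1 RNA 8 and 10, beside 18 and 13 of its own. In Dnmt3l, Trappc10 RNA had 8 and 4 pairs and Icosl RNA 2 and 4.

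Among other genes of the methylation pathway, those past the limits were lower in H3K27me3-RADIP. Of 50 listed genes, 27 had pairs in both libraries, 5 in Input only, 3 in H3K27me3-RADIP only and 15 in neither. Of the 27, 6 were called lower and 0 higher, beside 14% and 12.8% of all protein-coding RNAs, and their median log2 ratio was -0.08. Hells, a chromatin remodeller needed for methylation of repeats, had 212 pairs in Input against 80 in H3K27me3-RADIP, a log2 ratio of -1.44 (-1.83 to -1.06). Mbd5, of the methyl-CpG-binding family, had 273 and 99, a log2 ratio of -1.50 (-1.84 to -1.16). Ogt, the O-GlcNAc transferase that binds TET proteins, had 168 and 90, a log2 ratio of -0.93. Lig1, the DNA ligase of replication and repair, had 148 and 96 (-0.66), and Ung, a uracil-DNA glycosylase, had 110 and 76 (-0.57). Mat2a, which makes the methyl donor, had 54 and 30 (-0.88).

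The listed genes with the most pairs were not called. Usp7, a deubiquitinase that stabilises DNMT1, had 1311 and 1561 pairs, a log2 ratio of 0.22 (0.11 to 0.33). Nsd1, an H3K36 methyltransferase, had 736 and 745, Ehmt1, an H3K9 methyltransferase, 411 and 442, and Zbtb38, a methyl-CpG reader, 383 and 390. Kdm2b, which binds unmethylated CpG islands, had 238 and 333, a log2 ratio of 0.45 (0.21 to 0.70), just under the limit.

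The genes with distance profiles most like the members' were found among 3233 other protein-coding RNAs with at least 50 pairs in both libraries, by the summed difference of the shares in distance classes over both libraries. They were Lmbr1 for Tet1, with a summed difference of 9.80 points, App for Tet2 with 6.12, Cyth1 for Tet3 with 12.002, Cdc14a for Dnmt1 with 12.6, Camkk2 for Uhrf1 with 10.5 and Sgpl1 for Dnmt3a with 9.87. The median over all candidates lay between 70.7 points for Tet3 and 163 for Tet1.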

How the data were processed

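PGK12.1 mESCs were profiled by H3K27me3-RADIP and Input, with 8 deposited libraries in each condition that the authors merged into 1 table. The paper names fewer biological replicates than libraries, so the libraries are not all independent. Per the paper's methods and the submitters' processing notes, tags were mapped to mm10 (BWA 0.7.15-r1140 is among the tools named, with STAR 2.5.0a and CASAVA 1.8.2), pairs that mapped uniquely were kept, pairs on blacklisted DNA were dropped, and RNA tags were annotated with GENCODE genes. The deposited p-values and q-values (Benjamini–Hochberg) came from a negative binomial model that the authors fitted over all combinations of an RNA and a 25-kb bin, with 1 value for each combination. Pairs above a q-value of 0.1 were absent, so unlisted pairs are not zeros.

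Lines were counted by RNA name with Python 3.11.15, numpy 2.4.6, pandas 2.3.3, scipy 1.17.1 and matplotlib 3.10.9. Totals were 1305107 and 1415135 pairs, and 3 pairs correspond to 2.30 and 2.12 per 1000000 pairs. Levels have exact Poisson intervals. Log2 ratios used TMM factors over 8158 shared protein-coding RNAs (trims of 30% and 5%) and exact conditional intervals. Shares have Wilson intervals and their differences Newcombe intervals, all at 95%. Because pairs of 1 bin enter together and amplified copies cannot be removed, these intervals are too narrow as errors of the condition. No p-values were computed, since no replicate values were given. The ratios and intervals were tested on simulated data with independent counts. These lacked the blocks and copies of the real pairs, so the test could not check the intervals against them. Gene positions came from GENCODE M21, an older release on the same build, which held all 8 identifiers with their version, and sequence from the RefSeq copy of GRCm38. Listed intervals were read as counting from 0, which gave 1 q-value per combination.

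The 8 genes, the pathway list of 50 genes and the markers were chosen with earlier results of these data known. Named genes were the 8 members, the called pathway genes with at least 50 pairs in both libraries and the 5 with the most pairs, the RNA with the most alike distance profile per member, the genes of the 3 bins outside each gene with the most pairs and of the farthest bin, and the 2 other RNAs with the most DNA tags in each gene. Others, such as Mat2a and the genes of Tet1 bins listed in 1 library, were named after their values were seen.

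Alternatives were a q-value limit of 0.01, repeated positions counted once, combinations listed in both libraries, library totals, factors over all RNA names, gene identifiers, a minimum of 50 pairs, distance to the gene edge, limits of 50 and 200 kb, pairs over 25 kb apart, and whole bins in place of gene bounds. Libraries before merging and RNA expression were not analysed here.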

Additional observations from a re-analysis of the deposited data

How the results depend on the processing

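No paired analysis was possible because the libraries of each condition were merged before deposit and the tables carry no replicate; for the same reason no replicate could be left out. Of 48 counts over genes under an alternative, 40 stayed within 1.5 times the value reported and 8 moved. Of 146 values of single genes, 128 kept their side of the limit, 121 of them with the same sign and 7 with another sign or 0, all 7 within counting error. With combinations of RNA and bin listed in both libraries, which leaves fewer pairs by construction, 302 protein-coding RNAs were called higher and 473 lower, 0 of the 8 genes were called higher, 1 gene had a higher share of pairs over 100 kb, and the differences in that share were -0.049 points for Dnmt3a and -0.50 for Tet3. With a q-value limit of 0.01, 3 genes had more bins and 3 a lower own-gene share in H3K27me3-RADIP, and the own share of DNA tags in the gene differed by 8.40 points for Dnmt1, 1.84 for Tet3 and -50 for Dnmt3b, whose own RNA then had no combination left in H3K27me3-RADIP. Distances to the gene edge gave a longer median for 4 genes, and the median of the other 4 was 0 in both libraries by construction, since most of their DNA tags lay inside the gene. A limit of 200 kb gave Dnmt1 a difference of 3.52 points and Dnmt3a one of 0.61. Among pairs over 25 kb apart 0 genes had a different intronic share. The cause of the other changes was not tested. Dnmt3b and Dnmt3l, with 16 to 55 pairs, are limited most by depth.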
